A study of Mus musculus with 40 samples.

Results

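Double-strand break repair and Fanconi genes were followed in single mouse embryos: 39 genes of homologous recombination, end joining and interstrand crosslink repair, out of 55487 mouse genes counted. The members were a fixed list of symbols, found in the count tables through their GENCODE M21 gene identifiers, and all 39 were found. Zygotes were injected with 20 uM control siRNA (siCon) or 20 uM siRNA against Rif1 (siRif1) at 17 to 18 hours after hCG, the hormone that triggers ovulation, then kept in KSOM medium at 37 °C under 5% CO2. Lysis came 63 hours after hCG for 4-cell and 70 hours for 8-cell embryos, with 1 library made per embryo and ERCC spike-in RNA added to the lysis buffer. The 4-cell groups held 7 (siCon) and 13 (siRif1) embryos, and the 8-cell groups held 8 and 12. All groups share the cross, written (C57BL/6J xCBA) x DBA/2J on the first embryo with a strain number that climbs by 1 along the list, and all were injected, so no group shows the uninjected embryo.

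A DNA double-strand break can be rejoined end to end, copied from the sister chromatid by homologous recombination, or annealed through short repeats. The Ku dimer and DNA-PKcs hold ends for ligation, whereas the MRE11 complex with CtIP cuts back the ends to start recombination, in which BRCA2 helps prepare the single strand for strand exchange. Fanconi proteins detect crosslinked DNA, load a monoubiquitinated FANCD2-FANCI clamp and recruit nucleases. RIF1 acts with 53BP1 to hold back end resection and also sets replication timing, which makes these genes of interest in embryos with less Rif1. Cleavage embryos divide with short gap phases and start out on RNA stored in the egg.

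Promoters are shown for members with the smallest p between stages and for 1 member with a motif of E2F factors, which regulate S-phase genes. RefSeq windows (GRCm38.p6) of 250 bases before to 50 after the start were matched for 29 of the 39 members. No window was matched for Exo1, Fancd2, Nbn, Prkdc, Rad50, Rad51d, Rad54b, Rbbp8, Wrn or Xrcc2. Printed are the 250 bases before the start, on the gene's strand, 5′ to 3′. Searched on both strands were TTTCGCGC, TTTGGCGC and TTTCCCGC, and capitals mark the last of these, which Brca2 holds on the opposite strand. Dclre1c (chr2:3423881-3424130, plus strand) and Polq (chr16:37011536-37011785, plus strand) were taken by rank of the adjusted p for stage in siCon and contain none of the motifs, in the bases shown or in the 50 after the start. Slx4 and Blm ranked with them but are not printed, because their RefSeq starts lie 2092 and 121 bases inside the GENCODE gene, and neither window holds a motif. Brca2 (chr5:150522371-150522620, plus strand) was added after its motif was seen.
Dclre1c: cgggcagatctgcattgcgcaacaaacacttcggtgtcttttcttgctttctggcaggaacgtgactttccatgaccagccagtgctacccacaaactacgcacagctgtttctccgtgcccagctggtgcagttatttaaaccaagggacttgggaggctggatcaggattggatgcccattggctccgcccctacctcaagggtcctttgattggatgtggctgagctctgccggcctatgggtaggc
Polq: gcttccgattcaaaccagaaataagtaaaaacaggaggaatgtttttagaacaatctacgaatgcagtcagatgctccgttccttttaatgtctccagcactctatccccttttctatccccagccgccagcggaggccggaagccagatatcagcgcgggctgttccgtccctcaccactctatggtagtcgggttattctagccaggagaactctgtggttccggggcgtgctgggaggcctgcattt
Brca2: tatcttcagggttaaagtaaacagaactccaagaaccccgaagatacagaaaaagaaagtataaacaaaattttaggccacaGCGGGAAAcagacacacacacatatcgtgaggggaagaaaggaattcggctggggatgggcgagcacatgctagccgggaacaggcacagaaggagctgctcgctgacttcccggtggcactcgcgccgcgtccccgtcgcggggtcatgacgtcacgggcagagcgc

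A motif was present in 5 of the 29 member windows (17.2%) and in 1.91% of the first windows of 27025 genes. TTTCCCGC stood in Bard1, Brca2, Fancg and Xrcc6, and TTTCGCGC in Rad51c, 12 bases after the start. The RefSeq starts of Bard1, Fancg, Rad51c and Xrcc6 lie 174, 205, 448 and 28534 bases inside their GENCODE genes. Of the 5, only the start of Brca2 does not lie inside its GENCODE gene. None of these 5 genes passed the threshold for stage with all embryos and TMM scaling, though Brca2 and Bard1 did under other settings, as described next, and no motif match is taken as a bound site. Of 10 E2f and Tfdp genes tested, 2 were higher and 1 lower at the 8-cell stage in siCon, and 2 were higher and 3 lower in siRif1. Of all genes tested, 13.7% were higher and 16.3% lower in siCon, and 14.5% and 15.3% in siRif1. Without siCon 4-cell embryos 3 and 7, described below, 1 of the 10 was higher and 1 lower in siCon, against 10.5% and 11.9% of all genes.

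Libraries held 704863 to 8890551 counts on mouse genes, with a median of 3186068.5, and 940 to 13861 counts on the 39 members together. Levels are CPM, the gene's counts over the library total in units of 1e6, scaled by TMM, which equalises the bulk of genes between libraries. Tests were edgeR quasi-likelihood tests on all 40 embryos over 11844 genes, and a gene was called at a Benjamini-Hochberg adjusted p below 0.05. All 39 members passed the filter on low counts, and 33 had counts in every embryo. Labels were checked on Rif1, whose level ran from 302 to 568 CPM with a median of 367 in siCon 4-cell embryos and from 88.3 to 381 with a median of 149 in siRif1 4-cell embryos. Rif1 was lower in siRif1 at the 4-cell stage (log2 fold change -1.26 ± 0.24 SE, edgeR adjusted p = 0.00643), with 11 of 13 embryos below every control. At the 8-cell stage Rif1 ran from 262 to 382 CPM with a median of 302 in siCon. In siRif1 8-cell embryos it ran from 94.6 to 410 with a median of 219.9, and it was not called (-0.52 ± 0.24, edgeR adjusted p = 0.999). Of these 12 embryos, 9 lay below every control and 1 lay above every control. The stage labels were checked on 12 egg-stored transcripts (Zp3, Gdf9, Mos and others), whose summed level ran from 216 to 3570 CPM in siCon and 127 to 407 in siRif1 4-cell embryos, and from 66.3 to 187 and from 70.3 to 224 at the 8-cell stage. The summed level of 6 cleavage genes (Cdx2, Tfap2c, Klf5, Nanog, Pou5f1, Tead4) ran from 167 to 1022 and from 519 to 1187 CPM at the 4-cell stage. At the 8-cell stage it ran from 1043 to 1718 and from 1093 to 1552 CPM. Of the 6 genes, 3 in siCon and 4 in siRif1 were called higher at the 8-cell stage. In each treatment 1 of them had a log2 change below 0 (-1.16 and -1.19), which was not called. Of 7 granulosa markers, all 7 were at 0 in siCon 8-cell embryos, Fshr and Has2 were at 0 in both 4-cell groups, Fshr, Foxl2, Inha and Ptgs2 in siRif1 8-cell embryos, and the summed level reached at most 4.05 CPM.

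Control 4-cell embryos 3 and 7 stood apart from the other embryos. Snrpn, transcribed from the paternal copy, was at 0.977 and 2.08 CPM in these 2 embryos, against 34.6 to 112 CPM in the other 38. Their summed egg-stored transcripts, 1430 and 3570 CPM, were the highest of all embryos, and the others reached at most 793. Their summed cleavage genes, 314 and 167 CPM, were the lowest, and the others held at least 519. Whether this pair departed from the labelled cross, or what else set it apart, was not tested. Counts of called members that use siCon 4-cell embryos are therefore given with and without this pair, as are the changes of some members. Levels, levels per kilobase, sums over the members and spike-in values include the pair. Among members, both embryos lay above the other 5 controls for Rad51d, Xrcc3, Wrn, Lig4, Fanca, Fanci and Slx4 and below them for Rad51b and Prkdc. The siRNA groups carry the same replicate numbers, but nothing states a shared litter or day.

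Per kilobase of exon, the scale on which genes can be set side by side, the median member stood at 2.92 CPM per kb in siCon 4-cell embryos, the 39.8th percentile of the genes tested, whose median was 4.37. Brca2, a mediator of strand exchange, was highest at 20.9 CPM per kb, followed by Fancm at 16.9, Nhej1 at 15.2, Nbn at 13.2 and Eme1 at 11.7. These means include control embryos 3 and 7. Embryo 3 held the highest Brca2 value, 550 CPM, where the controls outside the pair reached at most 421. Embryo 7 held the lowest Fancm value, 79.3 CPM, where those controls held at least 127. At the low end were Rad51b at 0.512, Wrn at 0.815, Fancb at 0.944, Bard1 at 1.06 and Xrcc5 at 1.17 CPM per kb. Brca2 stood far above Palb2 (2.92), the protein that tethers it to BRCA1, and above Brca1 (2.25), and the ligase cofactor Nhej1 stood above Lig4 (1.83) and Xrcc4 (1.67). In siCon 8-cell embryos the median member was at 2.09 CPM per kb, the 35.1th percentile, and Brca2 (13.7), Nbn (12.5), Fancm (12.5) and Nhej1 (10.1) were again the 4 highest. In siRif1 4-cell embryos Brca2 was highest (16.6), whereas in siRif1 8-cell embryos Fancm (14.5) and Nbn (14.5) stood above Brca2 (12.6). No test was run on these orders.

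**Figure D1:**
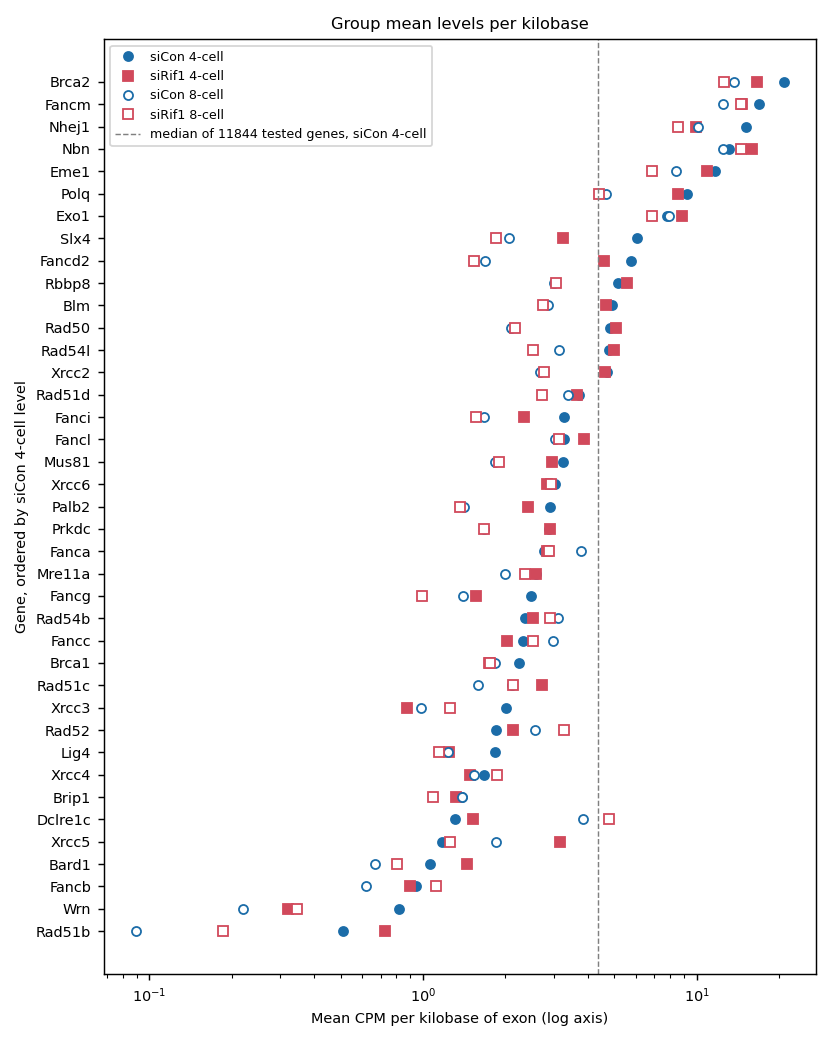
Mean level per kilobase of exon (log axis) of the 39 genes in the 4 groups, ordered by siCon 4-cell embryos; filled symbols are 4-cell and open symbols 8-cell groups, and the dashed line is the median of 11844 tested genes. Brca2, Fancm, Nhej1 and Nbn stand at the top, and Rad51b and Wrn at the bottom.

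From the 4-cell to the 8-cell stage 13 members were lower and 1 was higher in siCon embryos, where 16.3% of all genes tested were called lower and 13.7% higher. In siRif1 embryos, which share none of those embryos, 13 members were also lower and 1 higher, against 15.3% and 14.5% of all genes. The list median was -0.58 on the log2 scale in siCon (all genes, -0.03) and -0.37 in siRif1 (all genes, -0.01). Of the lower members, 10 were the same in both: Blm, Fancd2, Palb2, Polq, Prkdc, Rad50, Rad51b, Rbbp8, Slx4 and Xrcc2, which is 76.9% of the 13 in each comparison. Over all genes tested, 1253 were lower in both, 65.1% of the 1926 lower in siCon and 69.2% of the 1812 lower in siRif1, so the members' overlap lay near that of genes in general. Dclre1c was the gene called higher in both. Without control embryos 3 and 7, 10 members were lower and 2 higher, against 11.9% and 10.5% of all genes, with a list median of -0.30. Of the 10 members lower in both comparisons, 9 were still called, all but Palb2. With each embryo left out in turn and under each other setting but spike-in scaling, 7 were lower in both comparisons throughout: Blm, Fancd2, Polq, Rad50, Rad51b, Rbbp8 and Slx4. In whole embryos, fewer cells expressing a gene and less RNA per cell cannot be told apart.

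**Figure D2:**
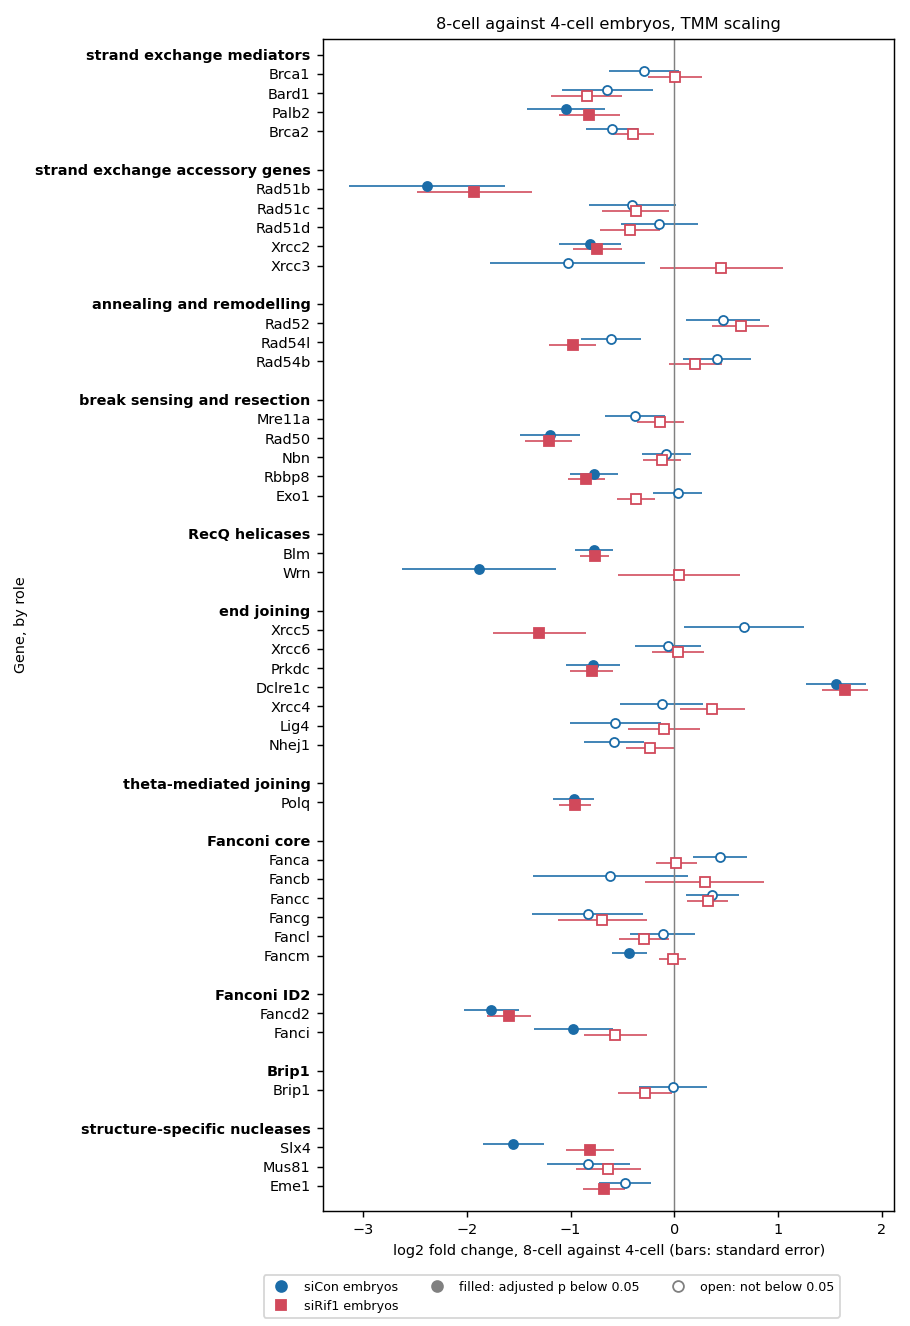
Log2 fold change between 8-cell and 4-cell embryos for each gene (x axis, bars are standard errors), by role, in siCon (circles) and siRif1 (squares); filled symbols passed an adjusted p of 0.05. Most filled symbols lie left of 0 and Dclre1c lies right of it in both.

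The Fanconi clamp held the member with the smallest p among those lower. Fancd2, the clamp subunit whose ubiquitination switches on crosslink repair (ENSMUSG00000034023, chromosome 6, 113531682 to 113597017 in GENCODE M21 on GRCm38), ran from 31.5 to 67.2 CPM with a median of 44.1 in siCon 4-cell embryos and from 5.72 to 21.0 with a median of 12.9 in siCon 8-cell embryos. In siRif1 it ran from 17.4 to 58.0 with a median of 37.4 and then from 7.90 to 24.2 with a median of 11.7. The siCon stages did not overlap, which was true of 2.54% of all genes in that direction, and 11 of 12 siRif1 8-cell embryos lay below every 4-cell one. The 8-cell level was 0.294 of the 4-cell level in siCon (log2 -1.77 ± 0.27, edgeR adjusted p = 2.9e-06) and 0.332 in siRif1 (-1.59 ± 0.21, adjusted p = 2.07e-07). Its partner Fanci ran from 5.53 to 33.5 CPM with a median of 20.3 and from 5.02 to 18.8 with a median of 8.95 in siCon, and from 3.81 to 32.4 with a median of 13.8 and from 2.62 to 18.3 with a median of 8.68 in siRif1. These ranges overlapped. Fanci was lower in siCon (-0.97 ± 0.38, edgeR adjusted p = 0.0484) but not called in siRif1 (-0.57 ± 0.30, adjusted p = 0.15), and the siCon call was lost without embryos 3 and 7 (-0.65, adjusted p = 0.263) and without any of 11 single embryos (adjusted p 0.0601 to 0.143). Fanci shares exon bases with Polg on the other strand, and reads over shared bases were not counted.

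Of the 6 members from the core complex, the ligase that ubiquitinates the clamp, 1 was called in either comparison. Other core genes, such as Fance and Fancf, are among the further genes below. Fancm, the DNA translocase that anchors the complex, ran from 79.3 to 239 CPM with a median of 193 at the 4-cell and from 93.6 to 168 with a median of 138 at the 8-cell stage in siCon, and from 131 to 188 with a median of 149 and from 105 to 185 with a median of 153 in siRif1. It was lower in siCon (-0.43 ± 0.17, edgeR adjusted p = 0.046), not in siRif1 (-0.02 ± 0.13, adjusted p = 0.936), and the siCon call was lost without any of 9 single embryos (adjusted p 0.0515 to 0.123). Without embryos 3 and 7 it was lower by -0.61 (edgeR adjusted p = 0.00438). The difference between these 2 changes was not called (interaction 0.42 ± 0.21, adjusted p = 0.824). Fanca, a core subunit, ran from 16.2 to 41.3 CPM with a median of 21.1 and from 15.9 to 46.7 with a median of 32.2 in siCon (0.44 ± 0.26, edgeR adjusted p = 0.194), and from 14.8 to 34.5 with a median of 26.3 and from 15.5 to 55.5 with a median of 22.2 in siRif1 (0.02 ± 0.20, adjusted p = 0.954). Without embryos 3 and 7, both above the other controls, Fanca was higher at the 8-cell stage in siCon (0.76, adjusted p = 0.0424). Fancb, Fancc, Fancg and Fancl, and the helicase gene Brip1, were not called in either comparison, with changes from -0.84 (Fancg in siCon) to 0.36 (Fancc in siCon).

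Among structure-specific nucleases, the scaffold was lower in both. Slx4, which docks nucleases on crosslinks and joint molecules, ran from 12.6 to 108 CPM with a median of 35.7 and from 11.3 to 22.5 with a median of 15.3 in siCon, and from 14.3 to 45.3 with a median of 26.1 and from 5.71 to 21.1 with a median of 13.8 in siRif1. Control embryos 3 and 7 held the highest values, 108 and 62.9 CPM. Slx4 was lower by -1.55 ± 0.29 in siCon (edgeR adjusted p = 8.11e-05), by -0.97 without that pair (adjusted p = 0.00943), and by -0.81 ± 0.23 in siRif1 (adjusted p = 0.00635). Eme1, partner of the MUS81 endonuclease, ran from 13.8 to 54.5 CPM with a median of 29.6 and from 13.6 to 38.8 with a median of 21.5 in siCon (-0.48 ± 0.25, edgeR adjusted p = 0.149), and from 11.5 to 46.7 with a median of 29.1 and from 11.8 to 26.6 with a median of 17.6 in siRif1 (-0.68 ± 0.20, adjusted p = 0.00821). All 12 siRif1 8-cell embryos lay below the 4-cell median. Stranded counts of Eme1 summed to 2.25 times the unstranded count, since its exons overlap Lrrc59 and Mrpl27. Mus81 was not called (-0.83 and -0.64, edgeR adjusted p = 0.11 and 0.117).

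Of 5 break sensing and resection genes, 2 were lower in both comparisons, Rad50 and Rbbp8. Rad50, the ATPase that holds the ends in the MRE11 complex, ran from 15.0 to 40.8 CPM with a median of 25.4 and from 3.77 to 16.8 with a median of 12.2 in siCon, and from 13.4 to 54.7 with a median of 26.3 and from 7.75 to 16.8 with a median of 11.5 in siRif1. All 8 and all 12 of the 8-cell embryos lay below the 4-cell median, and Rad50 was lower by -1.20 ± 0.29 in siCon (edgeR adjusted p = 0.00135) and by -1.21 ± 0.23 in siRif1 (adjusted p = 6.37e-05). The nuclease gene Mre11a (-0.38 and -0.13) and the signalling subunit Nbn (-0.08 and -0.12) were not called in either. Rbbp8, which encodes the resection cofactor CtIP, ran from 44.1 to 106 CPM with a median of 59.3 and from 20.1 to 59.9 with a median of 35.6 in siCon, and from 33.8 to 113 with a median of 66.3 and from 26.1 to 58.1 with a median of 35.9 in siRif1. It was lower in both (-0.78 ± 0.23 and -0.85 ± 0.18, edgeR adjusted p = 0.00919 and 0.000402). Exo1, the long-range resection exonuclease, was not called (0.03 and -0.37, edgeR adjusted p = 0.936 and 0.126), but passed in siRif1 without 4-cell embryo 9 (-0.44, adjusted p = 0.0479). Blm, a helicase that dissolves joint molecules, ran from 30.3 to 53.9 CPM with a median of 40.3 and from 17.2 to 34.0 with a median of 25.2 in siCon, and from 29.0 to 71.7 with a median of 38.6 and from 15.7 to 29.7 with a median of 23.8 in siRif1. It lay below every 4-cell embryo in 7 of 8 and 10 of 12 embryos, and it was lower in both (-0.78 ± 0.18 and -0.77 ± 0.14, edgeR adjusted p = 0.00104 and 5.3e-05). Wrn, the other RecQ helicase gene, ran from 0.369 to 18.5 CPM with a median of 2.96 and from 0.287 to 2.86 with a median of 1.69 in siCon, and from 0 to 6.16 with a median of 2.32 and from 0 to 7.75 with a median of 1.70 in siRif1. Its highest values, 18.5 and 11.0 CPM, were control embryos 7 and 3. Wrn was called in siCon (-1.88 ± 0.74, edgeR adjusted p = 0.0488) but not without that pair (-0.73, adjusted p = 0.544), not without any of 10 single embryos, and not in siRif1 (0.05 ± 0.58, adjusted p = 0.963).

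In strand exchange, 1 of 4 mediators and 2 of 5 accessory genes (Rad51b, Rad51c, Rad51d, Xrcc2 and Xrcc3), whose products assist strand exchange, were lower in each comparison. Palb2 ran from 8.45 to 50.1 CPM with a median of 17.4 and from 3.52 to 13.8 with a median of 10.7 in siCon, and from 5.19 to 37.7 with a median of 17.2 and from 4.28 to 19.6 with a median of 8.63 in siRif1. It was lower by -1.04 ± 0.37 (edgeR adjusted p = 0.0301) and -0.82 ± 0.30 (adjusted p = 0.0311), and the siCon call was lost without embryos 3 and 7 (-0.64, adjusted p = 0.247). Single embryos also decided it: siCon 4-cell 3 and 5 and 8-cell 4 (adjusted p 0.0634 to 0.18), and siRif1 4-cell 12 and 8-cell 4 and 12 (adjusted p 0.0543 to 0.0794). Brca2 ran from 104 to 550 CPM with a median of 266 and from 118 to 224 with a median of 192 in siCon, and from 144 to 359 with a median of 207 and from 78.3 to 285 with a median of 174 in siRif1. Its siCon stages overlapped widely and it was not called (-0.61 ± 0.25 and -0.40 ± 0.20, edgeR adjusted p = 0.0616 and 0.12). It was called lower in siCon with RLE factors, by DESeq2, and without 4-cell embryo 2, 4 or 6 or 8-cell embryo 2 (adjusted p 0.0165 to 0.0486), and in siRif1 without 8-cell embryo 11 (-0.50, edgeR adjusted p = 0.0493). Without siCon 4-cell embryos 3 and 7 it was at -0.33 in siCon (edgeR adjusted p = 0.365). Neither Brca1 (-0.29 and 0.01) nor its partner Bard1 (-0.65 and -0.84) was called, although Bard1 passed in siRif1 under 3 other settings and without any of 7 single embryos (adjusted p 0.0341 to 0.0476). Xrcc2 ran from 12.9 to 39.8 CPM with a median of 19.5 and from 5.50 to 20.4 with a median of 13.8 in siCon, and from 13.9 to 33.0 with a median of 23.0 and from 4.50 to 25.2 with a median of 14.5 in siRif1. It was lower in both (-0.82 ± 0.30 and -0.74 ± 0.23, edgeR adjusted p = 0.0341 and 0.014), and the siCon call was lost without any of 6 single embryos. Rad51b, a rare transcript with a median of 3 counts over all embryos, ran from 0.488 to 2.96 CPM with a median of 1.84 and from 0 to 0.860 with a median of 0.363 in siCon, and from 0 to 5.11 with a median of 2.83 and from 0 to 3.02 with a median of 0.562 in siRif1. At the 8-cell stage 3 of 8 and 4 of 12 embryos had no count. It was lower by -2.38 ± 0.75 and -1.93 ± 0.55 (edgeR adjusted p = 0.0142 and 0.00713), values that depend on few reads. Rad51c, Rad51d and Xrcc3 were not called.

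Of 3 annealing and remodelling genes, 1 was called in 1 comparison. Rad54l, a motor that opens the template duplex, ran from 25.1 to 44.2 CPM with a median of 37.7 and from 12.9 to 36.7 with a median of 24.4 in siCon, and from 11.5 to 75.0 with a median of 38.6 and from 5.89 to 33.4 with a median of 18.5 in siRif1. All 8 and all 12 of the 8-cell embryos lay below the 4-cell median, but only the siRif1 change passed the test (-0.98 ± 0.23, edgeR adjusted p = 0.00096, against -0.61 ± 0.29, adjusted p = 0.102 in siCon). The annealing factor Rad52 ran from 0.737 to 22.5 CPM with a median of 10.4 and from 9.43 to 24.6 with a median of 13.5 in siCon, and from 4.17 to 20.2 with a median of 13.7 and from 11.6 to 32.6 with a median of 18.6 in siRif1, and was not called (0.47 ± 0.35 and 0.64 ± 0.27, edgeR adjusted p = 0.331 and 0.0707). Rad54b was not called either (0.41 and 0.20).

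Of 7 end joining genes, 1 was higher and 1 lower in siCon, and 1 was higher and 2 lower in siRif1. Dclre1c, which encodes the Artemis nuclease that opens hairpins and trims ends, ran from 5.72 to 24.0 CPM with a median of 11.3 and from 25.1 to 54.5 with a median of 33.9 in siCon, and from 2.77 to 24.6 with a median of 13.8 and from 30.8 to 64.1 with a median of 44.2 in siRif1. Every 8-cell embryo lay above every 4-cell embryo in both treatments, as did 3.22% and 0.802% of all genes. The 8-cell level was 2.95 times the 4-cell level in siCon (1.56 ± 0.29, edgeR adjusted p = 8.25e-05) and 3.13 times in siRif1 (1.65 ± 0.22, adjusted p = 2.95e-07). Prkdc, which encodes its partner kinase DNA-PKcs, ran from 21.3 to 55.6 CPM with a median of 35.4 and from 10.5 to 34.3 with a median of 23.2 in siCon, and from 18.9 to 63.4 with a median of 37.7 and from 11.4 to 40.9 with a median of 21.9 in siRif1, and it was lower in both (-0.78 ± 0.26 and -0.80 ± 0.21, edgeR adjusted p = 0.0212 and 0.00317). The siCon call was lost without 4-cell embryo 6 (-0.67, adjusted p = 0.0583). The Ku subunit Xrcc5 ran from 0.520 to 5.06 CPM with a median of 3.32 and from 0.943 to 7.44 with a median of 5.69 in siCon (0.67 ± 0.58, edgeR adjusted p = 0.401), and from 0 to 25.5 with a median of 6.39 and from 0.659 to 6.81 with a median of 2.63 in siRif1. In siRif1 it was lower (-1.30 ± 0.45, edgeR adjusted p = 0.0246), but not without 4-cell embryo 13, the highest (-1.01, adjusted p = 0.0796). Its partner Xrcc6 was not called (-0.06 and 0.03). Nhej1, which bridges the ligase on both ends, ran from 11.7 to 26.1 CPM with a median of 16.6 and from 5.07 to 19.7 with a median of 11.0 in siCon, and from 5.76 to 17.0 with a median of 10.4 and from 3.44 to 17.2 with a median of 9.19 in siRif1, and was not called (-0.58 and -0.24, edgeR adjusted p = 0.126 and 0.459). Neither Xrcc4 (-0.12 and 0.36) nor Lig4 (-0.57 and -0.10) was called. Polq, the polymerase of repeat-annealed joining, ran from 64.2 to 122 CPM with a median of 84.2 and from 28.0 to 63.8 with a median of 44.5 in siCon, and from 54.5 to 115 with a median of 77.2 and from 20.3 to 71.3 with a median of 41.2 in siRif1. The siCon stages did not overlap, 11 of 12 siRif1 8-cell embryos lay below every 4-cell embryo, and the 8-cell level was 0.510 and 0.515 of the 4-cell level (-0.97 ± 0.20 and -0.96 ± 0.16, edgeR adjusted p = 0.000218 and 6.88e-06).

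**Figure D3:**
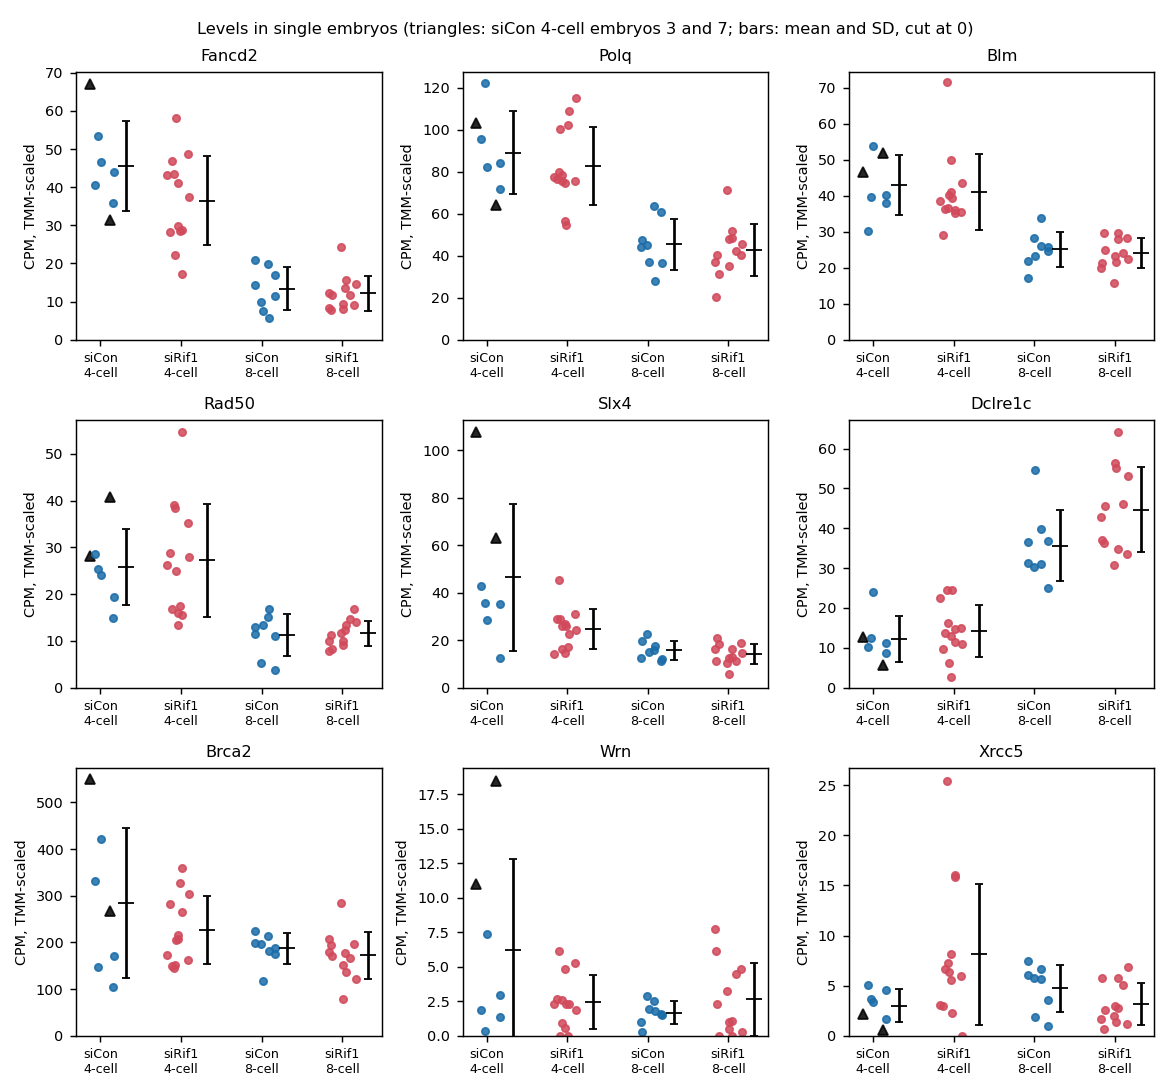
TMM-scaled CPM of 9 genes in each embryo (points) by group, with mean and SD; triangles are siCon 4-cell embryos 3 and 7. Fancd2, Polq, Blm, Rad50 and Slx4 are lower and Dclre1c is higher at the 8-cell stage, while single 4-cell embryos carry the high values of Brca2, Wrn and Xrcc5.

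These stage changes are shares of the embryo's RNA. Mouse counts per ERCC count were 31.6 ± 14.3 (SD, n = 7) in siCon and 34.1 ± 11.8 (SD, n = 13) in siRif1 4-cell embryos, and 52.8 ± 10.5 (SD, n = 8) and 57.8 ± 20.8 (SD, n = 12) at the 8-cell stage. The 39 members summed to 1300 ± 247 and 1181 ± 120 CPM at the 4-cell stage and to 927 ± 71.9 and 914 ± 84.6 CPM at the 8-cell stage, for siCon and siRif1. Per ERCC count, the same sum was 0.0449 ± 0.0197, 0.0442 ± 0.0163, 0.0459 ± 0.0110 and 0.0486 ± 0.0243 in siCon 4-cell, siRif1 4-cell, siCon 8-cell and siRif1 8-cell embryos, which differ by less than the spread between embryos. With spike-in totals as size factors, the median of all genes moved to 0.49 and 0.46 and that of the members to -0.00 and 0.05 in siCon and siRif1. On that scale 20 of 39 members in siCon and 17 in siRif1 were below 0. Fancd2 was the 1 member called lower in each (-1.31 and -1.18, edgeR), where 3.59% and 3.72% of all genes were. Dclre1c (1.96 and 2.26) was called higher in both, with Fanca in siCon and Rad52 in siRif1, where 15.2% and 23.1% of all genes were called higher. The other members called lower with TMM were not called on the spike-in scale, and Fancm in siCon stood at 0.01.

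**Figure D4:**
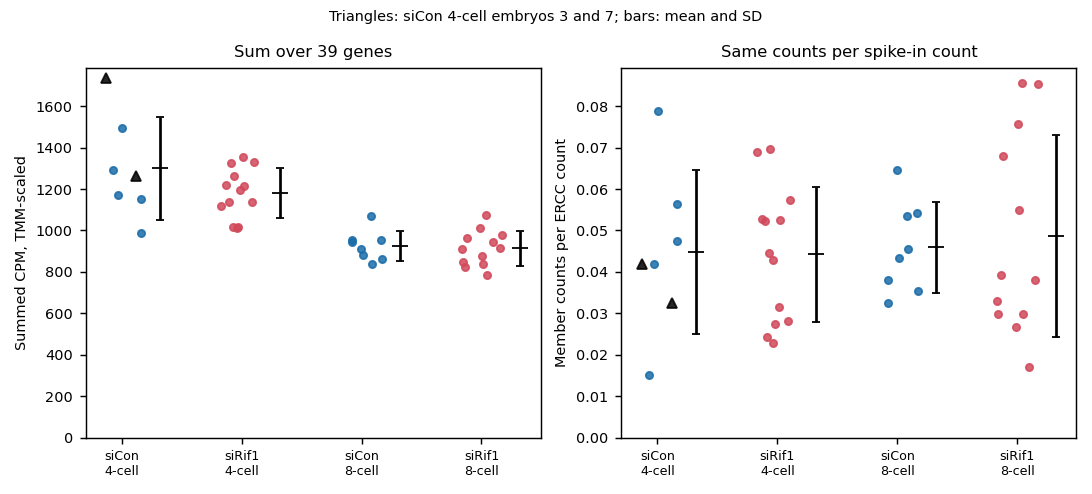
Summed TMM-scaled CPM of the 39 genes in each embryo (left) and their summed counts per ERCC count (right), with mean and SD per group. The left panel is lower at the 8-cell stage, and the right panel overlaps in all 4 groups.

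In edgeR with all embryos, injection of Rif1 siRNA moved no member past the threshold. At the 4-cell stage edgeR called 0 of 39 members, where 0.127% of all genes were higher and 0.439% lower, and 4 members had an unadjusted p under 0.05. DESeq2 called 1.54% of its genes and 1 member, Slx4 (lower). Without control embryos 3 and 7, edgeR called 0 members and 0.00844% of genes in each direction, and 1 member had an unadjusted p under 0.05. The list median was -0.07 with all controls and 0.10 without that pair. Slx4 had the smallest p. Its siRif1 range of 14.3 to 45.3 CPM lay inside the control range of 12.6 to 108, with 12 of 13 siRif1 embryos below the control median (-0.90 ± 0.25, edgeR adjusted p = 0.0803). It was called without siCon embryo 1, siCon embryo 2 or siRif1 embryo 12 (-0.99 to -1.07, edgeR adjusted p 0.0157 to 0.0492), whereas without embryos 3 and 7 the change was -0.31 (adjusted p = 0.874). Wrn followed the same embryos, at -1.31 ± 0.63 with them and -0.15 without (edgeR adjusted p = 0.43 and 0.987). Xrcc5 was at 1.43 ± 0.54 with 9 of 13 siRif1 embryos above every control (edgeR adjusted p = 0.27), and at 1.13 without the pair (adjusted p = 0.729). For Nhej1, 9 of 13 siRif1 embryos lay below every control (-0.60 ± 0.26, edgeR adjusted p = 0.357, and -0.53 without the pair).

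At the 8-cell stage edgeR called 0 members, where 0.00844% of genes were higher and 0% lower, and 0 members had an unadjusted p under 0.05. Rif1 itself was not called at this stage, with 9 of 12 siRif1 embryos below every control and 1 above every control. DESeq2 called 0 members and 0.00283% of its genes. The smallest p belonged to Fanca, with 11 of 12 siRif1 embryos below the control median (-0.39 ± 0.23, edgeR adjusted p = 0.999). Fancm (0.22 ± 0.15), Rad51b (1.00 ± 0.72) and Eme1 (-0.29 ± 0.22) followed. The change of the siRNA effect between stages was called for 0 members and 0% of genes higher and 0% lower by edgeR, with and without embryos 3 and 7, and DESeq2 called 0 members and 0.0852% of its genes. Unadjusted p was under 0.05 for 2 members in the edgeR interaction, Xrcc5 (-1.98 ± 0.74, adjusted p = 0.613) and Wrn (1.93 ± 0.94, adjusted p = 0.785). Slx4 (0.74 ± 0.37) and Fancm (0.42 ± 0.21) came next. Without embryos 3 and 7, Wrn was at 0.77 and Slx4 at 0.14, Xrcc5 at -1.68 and Fancm at 0.59, and 3 members had an unadjusted p under 0.05, 2 of them in the Fanconi core and 1 in end joining (smallest edgeR adjusted p = 0.675). Both siRNA comparisons use separate embryos, while the 4-cell controls also enter the siCon stage comparison.

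**Figure D5:**
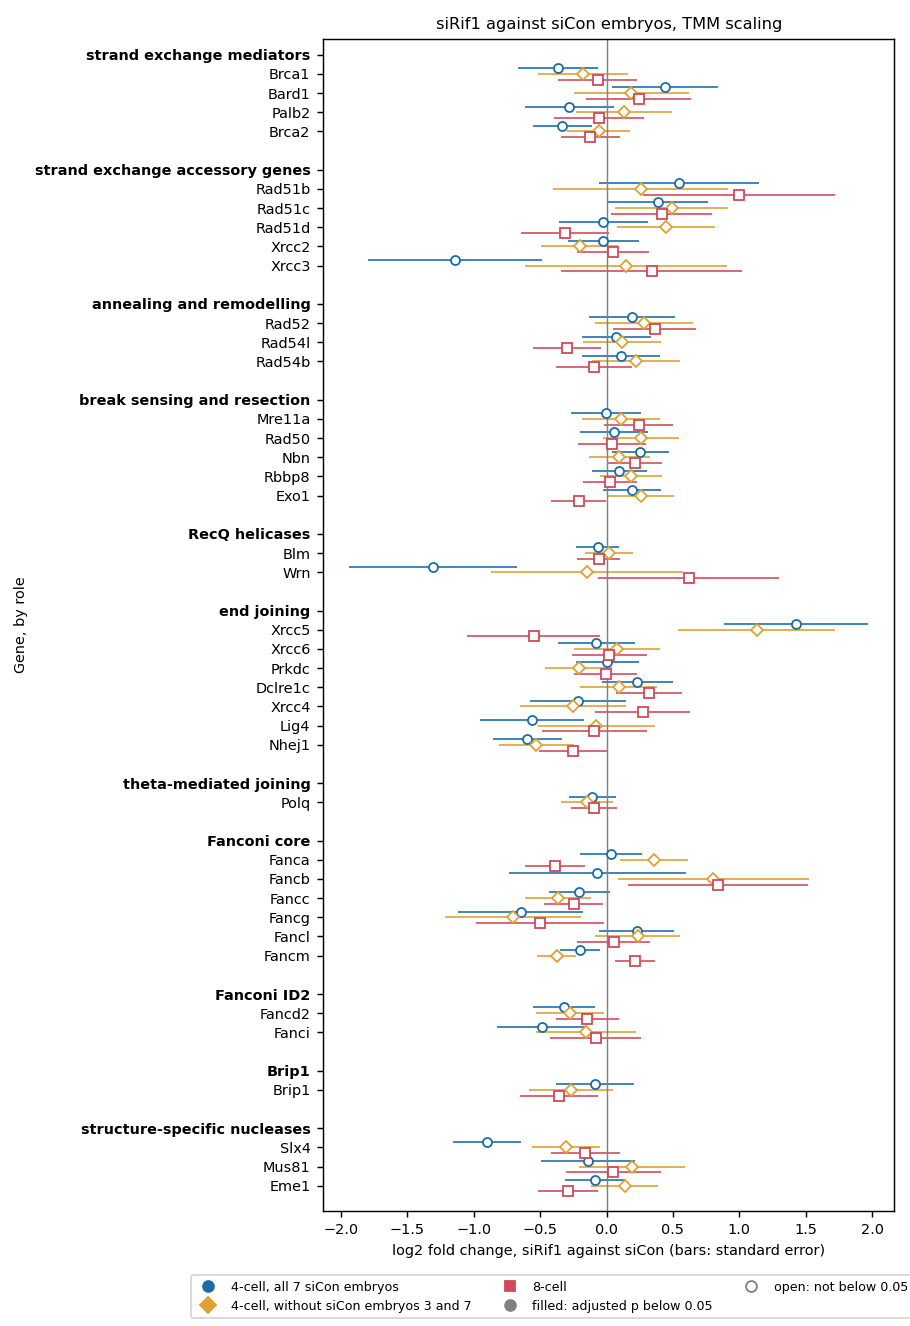
Log2 fold change between siRif1 and siCon embryos (x axis, bars are standard errors) for each gene by role, at the 4-cell stage with all controls (circles) and without siCon embryos 3 and 7 (diamonds), and at the 8-cell stage (squares). All symbols are open, and Slx4, Wrn and Xrcc3 move toward 0 without the pair.

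Beyond the members, 57 further genes of the same pathways were listed and 53 were tested. At the 8-cell stage 9 were lower (17.0%) and 5 higher (9.43%) in siCon, against 16.3% and 13.7% of all genes. Without siCon 4-cell embryos 3 and 7, 6 were lower and 6 higher in siCon, against 11.9% and 10.5% of all genes. In siRif1 11 were lower (20.8%) and 2 higher (3.77%), against 15.3% and 14.5%. The shares lower lay near the background, and the genes named next are those with small p. Trp53bp1, the chromatin partner of RIF1 at breaks, was lower in both (-1.90 ± 0.24 and -1.55 ± 0.18, edgeR adjusted p = 9.89e-08 and 2.08e-08). So were Rnf168, the ligase that writes the mark 53BP1 reads (-1.06 and -0.58), Faap24 (-1.20 and -0.62) and Ube2t, the E2 enzyme of the Fanconi ligase (-0.97 and -0.96). Without embryos 3 and 7, Ube2t was not called in siCon (-0.50, edgeR adjusted p = 0.17). Sfr1, a recombination cofactor, was higher in both (1.19 ± 0.20 and 0.95 ± 0.15). In the siRNA comparisons edgeR called 1 of the 53, Rif1 itself, lower at the 4-cell stage. Without embryos 3 and 7 it was lower by -1.35 (edgeR adjusted p = 0.0499).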

How the data were processed

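RNA was measured in 40 single embryos. The authors deposited raw counts of reads per gene for each embryo, with unstranded and per-strand columns; STAR 2.7.6a and the GRCm38 build are named per the submitters' processing notes, and the counting options are not given in the sources used here. The unstranded column was used, because the first strand took 49.7% to 51.2% of counts. Reads over 2 genes were not counted, which touches 18 members that share exon bases with another gene. Genes were named through GENCODE M21, and the 4 summary entries were left out.

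Counts were filtered (filterByExpr by group, minimum count 10), scaled by TMM and tested in edgeR 4.0.16 (R 4.3.3, limma 3.58.1) by a quasi-likelihood fit with 1 coefficient per group over all embryos. P-values were adjusted by Benjamini-Hochberg over 11844 genes, and the SE is the log2 fold change over the square root of F. Alternatives were DESeq2 1.42.0, RLE factors, ERCC totals, no filter, a replicate block, only the groups compared, and embryos left out. The test was also run on simulated counts.

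Members past an adjusted p of 0.05 in any comparison, and the 4 with the smallest p in each siRNA comparison and in the interaction, are given in full. The members and lists were chosen with earlier results of these data known. Nothing says that embryos came from separate litters, so p-values measure the spread between embryos. The 15 paternally expressed genes summed to 8.55 and 108 CPM in siCon 4-cell embryos 3 and 7, against 166 or more elsewhere. Same-numbered embryos were checked for shared deviations and are not treated as pairs. Depth limits Rad51b, Xrcc3, Fancb and Wrn most. One gene of the further pathway list is counted with that list and not reported here by name.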

Additional observations from a re-analysis of the deposited data

Results flagged for a closer look

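Dclre1c stood at 24.0 CPM in siCon 4-cell embryo 1, away from the other 6 embryos of its group, which ran from 5.72 to 12.7 CPM. Palb2 stood at 3.52 CPM in siCon 8-cell embryo 4, below the other 7 embryos of its group at 9.33 to 13.8 CPM. Dclre1c was still called higher at the 8-cell stage without embryo 1, and Palb2 was no longer called lower in siCon without embryo 4 (-0.92, edgeR adjusted p = 0.0634). The check for a single distant embryo covered 19 members in both siCon groups. The siRif1 groups were too large for it and were not checked. Among the 38 siCon groups of values checked, these were the 2 found, and chance gives about 1 in 20. The cause was not tested.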

How the results depend on the processing

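Values were recomputed for members called between stages and for the 4 with the smallest p in each siRNA comparison and the interaction, none of them called. Most were refits with 1 embryo left out, which share nearly all embryos. Of 1138 such values, 1137 kept their direction and 1047 their side of the threshold. The exception was Fancm in the siCon stage comparison, at 0.011 with ERCC totals. In that comparison Fanci stayed called in 6 settings and was lost in 16, and Wrn in 8 and 14. Fancm stayed called in 9. Members called lower in siCon numbered 13, and 1 with ERCC totals, 8 with no filter, 8 with only the 2 groups compared, 8 with a replicate block, 14 with RLE factors or by DESeq2 (Brca2 added), 10 without siCon 4-cell embryos 3 and 7, and 9 to 12 with single embryos left out. Members called higher in siCon numbered 1, and 2 with ERCC totals or without siCon 4-cell embryos 3 and 7. In siRif1, 13 were lower, and 1 with ERCC totals, 14 by DESeq2, without that pair or with only the 2 groups compared (Bard1 added), and 12 to 14 with single embryos left out, while 1 was higher, and 2 with ERCC totals or only the 2 groups compared. At the 4-cell stage siRif1 lowered 0 members, 1 by DESeq2, and 0 to 1 with single embryos left out. Over all genes that comparison called 67, and 322 with no filter, 196 by DESeq2, 4 with ERCC totals, 2 with only the groups compared and 0 with the block. ERCC totals moved the median of all genes by the shift given above; the cause of the other changes was not tested. Same-numbered embryos did not deviate together (1 of 7, 2 of 8, 0 of 7 and 2 of 12 pairs correlated over 0.1), so the replicate block is given here only.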
